A study of Mus musculus with 1002 samples.

Results

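Single cells labelled Pou4f3-DTR and wildtype were compared at postnatal day 6 (P6) within sequencing pool 1, where both genotypes were sequenced together. Only wells marked as passed in the labels were members, 60 Pou4f3-DTR and 140 wildtype, which make 200 of the 861 passed wells among 1002 wells of the series. Another 1 Pou4f3-DTR and 22 wildtype wells of the pool were marked as failed. All cells came from the utricle, which senses gravity and linear movement, of mice whose strain is given as a mix of C57BL/6 and FVB. They were sorted by FACS into plate wells, and libraries were made with Smart-seq2, which covers whole transcripts and counts PCR reads, not independent molecules. Both groups were made with the reverse transcriptase labelled maxima at a well volume of 4, for which no unit is given.

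Pou4f3 is a transcription factor that hair cells need for maturation and survival, and Pou4f3-DTR names an allele that places the receptor for diphtheria toxin under its control, so that cells bearing the receptor can be killed by the toxin. Hair cells are the receptors of head movement. The supporting cells around them make extracellular matrix and, in the young utricle, can form new hair cells through Atoh1, while Notch ligands such as Dll1 on a young hair cell keep its neighbours in the supporting cell state. The labels do not state whether toxin was given, how the sort gates were set, how many copies of the allele were carried, or the animal of origin of any cell. Each genotype therefore counted as 1 sample, and no difference below has a test, a p-value or a standard error. Intervals are 95% and cover counting error only. Some plate positions occur in both genotypes, so not all wells shared a plate, and plate and genotype cannot be told apart. A check outside the pool used 34 Pou4f3-DTR wells of pool 2 and 84, 79 and 79 wildtype wells of pools 4, 5 and 6, all at P6.

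The median depth was 566900 reads per Pou4f3-DTR well (164742 to 890823) and 463566.5 per wildtype well (124689 to 992302), with medians of 2988.5 and 2980 genes. The genotype label was checked against an entry of the count table named Pou4f3DTR. It was read in 10 of 60 Pou4f3-DTR wells (16.7%, exact binomial interval 8.29 to 28.5%) and in 0 of 140 wildtype wells (exact upper limit 2.60%). All 10 wells were among the 32 hair-cell-like ones, and 9 of them also held Pou4f3 reads. In the check pools the entry was read in 10 of 34 Pou4f3-DTR wells, but also in 2 of 84, 4 of 79 and 8 of 79 wells labelled wildtype. Sex-linked reads differed between the groups too. Xist, the RNA of the inactive X chromosome, was read in 10 of 60 wells of Pou4f3-DTR against 0 of 140 of wildtype, and a Y-linked gene (Ddx3y, Eif2s3y, Kdm5d or Uty) in 33 and 96. Among the hair-cell-like wells Xist was read in 2 of 32 and 0 of 59.

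Hair cells were the largest class in both genotypes, and in every class the intervals of the shares overlapped. Clusters were named from their markers. Hair-cell-like wells (4 clusters, each with Otof, Myo6 and Pou4f3) were 32 of 60 in Pou4f3-DTR, or 53.3% (40 to 66.3%), and 59 of 140 in wildtype, or 42.1% (33.9 to 50.8%). Supporting-cell-like wells (1 cluster, with Otog, Sparcl1 and Jag1) were 7, or 11.7% (4.82 to 22.6%), and 27, or 19.3% (13.1 to 26.8%). Roof-epithelium-like wells, from the thin non-sensory epithelium opposite the sensory patch (1 cluster, with Oc90, Slc26a4 and Lmx1a), were 13, or 21.7% (12.1 to 34.2%), and 45, or 32.1% (24.5 to 40.6%). Transitional-epithelium-like wells, from the border of the sensory patch, were 3 and 6. A last cluster, led by Rrad, Ptpn5 and Cpne4, carried 7 supporting cell and 3 transitional markers, was left unnamed, and held 5 and 3 wells. All of these shares can be set by the gates of the sort. Outside the pool the hair-cell-like share was 61.8% in Pou4f3-DTR pool 2 and 55.95%, 50.6% and 40.5% in wildtype pools 4, 5 and 6, so wildtype pool 4 lay above Pou4f3-DTR pool 1. The smaller classes depended on the clustering: at resolution 2 the supporting-cell-like share was 20% in Pou4f3-DTR and 21.4% in wildtype, and the roof-epithelium-like share 11.7% and 20.7%.

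**Figure D1:**
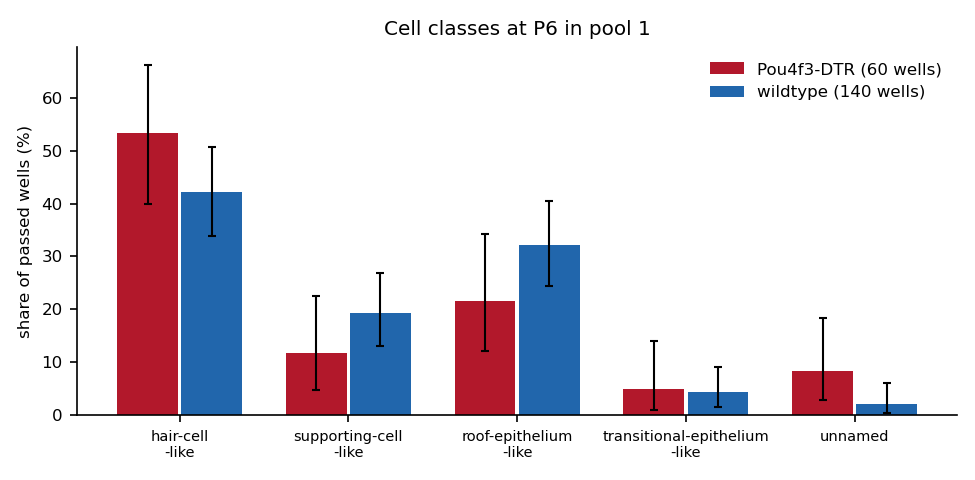
Share of passed pool 1 wells in each cell class (vertical axis, percent) for Pou4f3-DTR and wildtype, with exact binomial 95% intervals as bars. The hair-cell-like share was 53.3% and 42.1%, and the intervals of the genotypes overlap in every class.

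Within hair-cell-like wells Ocm and Calb1, calcium buffers that mark hair cells of the striola, the central zone of the utricle, were higher in Pou4f3-DTR. Per well Ocm ran from 0 to 4377 CPM (reads of a gene scaled to a common total of gene reads per well or group) with a median of 0 in Pou4f3-DTR, and from 0 to 2227 CPM with a median of 0 in wildtype. It was read in 10 of 32 wells (31.2%, 16.1 to 50.01%) and in 8 of 59 (13.6%, 6.04 to 24.98%), so most wells of both groups were at 0 and the ranges overlapped. Summed over wells, Ocm (chromosome 5, 144019804 to 144026670, GRCm38) stood at 655 CPM (exact Poisson interval 644 to 667) against 60.1 CPM (57.2 to 63.04), a 10.9-fold difference. Calb1 (chromosome 4, 15881264 to 15908064) ran from 0 to 3714 CPM per well in Pou4f3-DTR and from 0 to 762 CPM in wildtype, with medians of 0, and was read in 11 of 32 and 8 of 59 wells. Its sum was 538 CPM (528 to 548) against 42.97 CPM (40.5 to 45.5), 12.5-fold higher. A minority of wells carried both differences. The list of striolar and calcium buffer genes as a whole had 4 members at least 1.5-fold higher and 2 lower of 11, where 21% and 34% of all genes were. Its median log2 fold was 0.23, and 0.19 in the check. In both Pou4f3-DTR pools Calb1, Ocm and Calm2 were above all wildtype pools, and Calb2, Atp2b1, Atp2b4 and S100a1 were below.

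These genes and Atp2a3, which encodes a calcium pump of the endoplasmic reticulum, came from overlapping wells. Atp2a3 (chromosome 11, 72961169 to 72993044) was read in 8 of 32 Pou4f3-DTR wells, up to 1265 CPM, and in 0 of 59 wildtype wells (upper limit 6.06%). Its sum of 224.7 CPM was at least 2038-fold higher than 3 reads over the wildtype group, a bound on reads and not on wells. At least 2 of Ocm, Calb1 and Atp2a3 were read in 9 of 32 Pou4f3-DTR wells (28.1%, 13.7 to 46.7%) and in 4 of 59 wildtype wells (6.78%, 1.88 to 16.5%), with intervals that overlap. In the check pools at least 2 of them were read in 9 of 21 Pou4f3-DTR wells and in 5 of 47, 2 of 40 and 4 of 32 wildtype wells. Most of the pool 1 wells lay in the hair-cell-like cluster that Ocm, Atp2a3 and Calb1 lead, which held 9 Pou4f3-DTR and 5 wildtype wells. There Ocm was read in every well and stood at 2272 against 843 CPM, and Atp2a3 was read in 7 of 9 and 0 of 5. With wildtype weighted to the cluster mix of the Pou4f3-DTR wells, the log2 fold went from 3.45 to 1.42 for Ocm and from 3.65 to 2.55 for Calb1.

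Car8, a carbonic anhydrase relative without the enzyme's activity, was higher as well and depended less on that cluster. It ran up to 845 CPM in 11 of 32 Pou4f3-DTR wells (34.4%, 18.6 to 53.2%) and up to 145.1 CPM in 4 of 59 wildtype wells (6.78%, 1.88 to 16.5%). Its sum (chromosome 4, 8143362 to 8239041) was 97.3 CPM (92.9 to 101.8) against 4.67 CPM (3.89 to 5.55), and the log2 fold of 4.38 was 4.32 with weighting by cluster. Of the 11 wells, 5 held no read of Ocm, Calb1 or Atp2a3. Nipal1, which encodes a magnesium transporter, was read in 12 of 32 and 7 of 59 wells and stood at 235.9 against 28.8 CPM, a log2 fold of 3.04. With every well thinned to 80000 reads, which left out 0 wells, Car8 was read in 9 and 2 wells, Ocm in 10 and 8, and Calb1 in 11 and 7.

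The other genes named as higher by size included Kcnj16, a potassium channel, at 88.4 against 1.29 CPM in 8 and 2 wells. Crim1, a membrane protein that binds BMPs, stood at 61.6 against 3.53 CPM in 10 and 8 wells. Cul3, a ubiquitin ligase scaffold, the RNA-binding protein gene Qk and Bcap29, of the endoplasmic reticulum, had log2 folds of 3.39, 3.09 and 2.87. The 10 genes named as lower were each read in at most 6 Pou4f3-DTR wells. Rilpl2, which acts in protein traffic at the cilium, was read in 0 of 32 wells (upper limit 10.9%) and in 18 of 59, and stood at 0 against 59.6 CPM. Cggbp1, which binds CGG repeats, stood at 3.11 against 104.3 CPM and was read in 6 and 24 wells. Cwc22, a splicing factor, stood at 8.17 against 221.4 CPM in 5 and 30 wells. The kinase gene Dyrk1b (2.53 against 54.4 CPM) and Fam122b (2.69 against 60.5 CPM) were read in 2 and 26 and in 1 and 19 wells. Lpcat3, Card10, Xpo1, Rab2b and Arl2bp completed the list with log2 folds from -5.57 to -4.14.

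These 20 genes were picked by their fold in pool 1, so their size there is a description. Of 9975 genes with at least 10 CPM in either genotype, 13% were at least 2-fold higher and 22.3% at least 2-fold lower in Pou4f3-DTR. Wildtype pools differed from each other as well: against wildtype pool 1, 13.1% of genes were at least 2-fold higher and 13.1% lower in pool 4, 16.1% and 14.4% in pool 5, and 19% and 14.1% in pool 6. The check shares no well with pool 1, but its genotypes came from different pools, so genotype and pool cannot be told apart there. Y-linked genes were read in 20 of 34 wells of pool 2, and in 56 of 84, 1 of 79 and 1 of 79 of wildtype pools 4, 5 and 6. Whether the Pou4f3-DTR cells of pools 1 and 2 came from the same animals is not stated. In the check 12.3% of genes were at least 2-fold higher and 28% lower in Pou4f3-DTR. Of the 10 higher genes 9 kept their direction in the check and 5 were at least 2-fold higher: Ocm (log2 fold 2.24), Calb1 (2.02), Atp2a3 (1.15), Car8 (3.40) and Nipal1 (1.62). Cul3 went the other way, at -1.12. Of the 10 lower genes 8 kept their direction, 6 of them at least 2-fold: Rilpl2, Cggbp1 (-3.29), Cwc22 (-2.58), Fam122b (-2.24), Dyrk1b (-2.26) and Arl2bp (-1.53). Lpcat3 (1.20) and Xpo1 (0.47) went the other way.

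Set beside all wildtype pools, some of these genes were outside the wildtype range in both Pou4f3-DTR pools and some were not. Of 11583 genes with at least 10 CPM in any of the 6 pools, 6.29% were higher in both Pou4f3-DTR pools than in all 4 wildtype pools and 16.2% were lower in both. Since pool 1 chose the named genes, its part in this count was fixed by the choice, and the count is a description. Among them Car8, Calb1, Ocm, Nipal1 and Bcap29 were above, and Rilpl2, Cggbp1, Fam122b, Dyrk1b, Rab2b and Arl2bp were below. Ocm stood at 655 and 859.9 CPM in the Pou4f3-DTR pools, and at 60.1, 369.3, 63.3 and 150.5 CPM in wildtype pools 1, 4, 5 and 6. Car8 stood at 97.3 and 194.6 CPM against 4.67, 27.4, 9.13 and 21.2 CPM. Atp2a3 stood at 224.7 and 38.2 CPM against 0, 5.54, 4.44 and 42.8 CPM, so pool 2 lay within the wildtype range. Cwc22 ranged from 21.1 to 495 CPM among wildtype pools, with 8.17 and 28.2 CPM in Pou4f3-DTR.

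**Figure D2:**
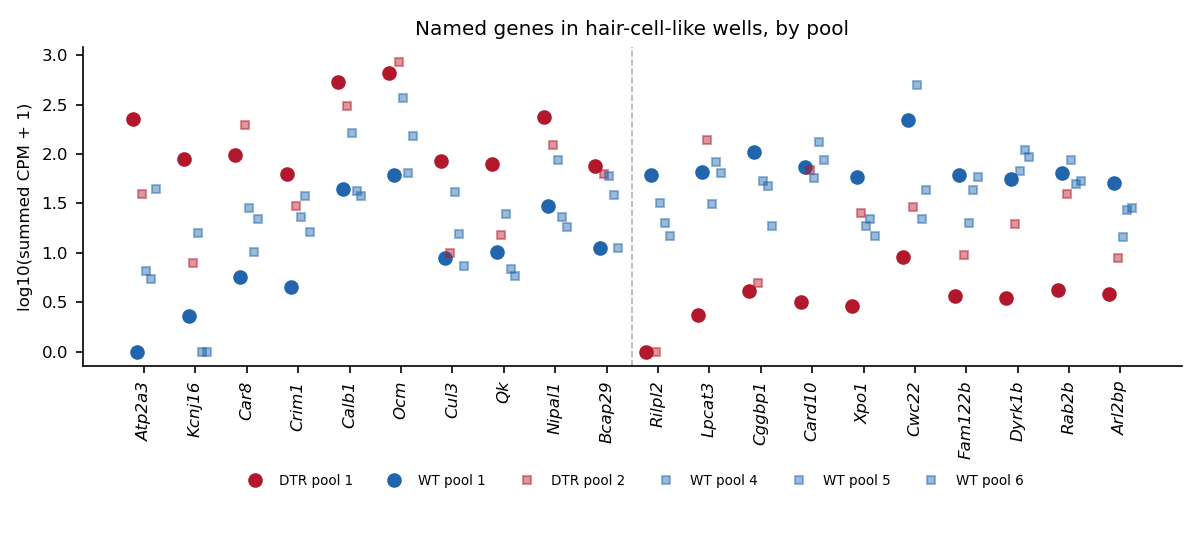
Summed level of the 20 named genes in hair-cell-like wells (vertical axis, log10 of CPM + 1) in each Pou4f3-DTR (red) and wildtype (blue) pool, with pool 1 as large circles and the check pools as squares; the 10 genes left of the dashed line were named as higher in pool 1. Both red points lie above every blue one for 5 of those 10 genes, and below every blue one for 6 of the other 10.

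Genes of young hair cells were lower in Pou4f3-DTR hair-cell-like wells. These wells had fewer genes (median 3387 against 3892) at more reads (580653.5 against 448508) and a higher mitochondrial share (4.18% against 2.40%), whose part in the gene levels was not tested. Atoh1, the factor that starts hair cell differentiation (chromosome 6, 64729125 to 64731245), ran from 0 to 892 CPM per well in Pou4f3-DTR and from 0 to 1139 CPM in wildtype, with medians of 0. It was read in 3 of 32 wells (9.38%, 1.98 to 25.02%) and in 19 of 59 (32.2%, 20.6 to 45.6%), and its sum was 64.2 CPM (60.6 to 67.9) against 169.9 CPM (164.99 to 174.8). The intervals of the shares of wells overlapped. In the check pools Atoh1 was read in 2 of 21 Pou4f3-DTR wells and in 15 of 47, 15 of 40 and 10 of 32 wildtype wells. Within the hair-cell-like cluster that Gal, Atoh1 and Dll3 are among the leading genes of, Atoh1 was read in 3 of 7 Pou4f3-DTR and 18 of 19 wildtype wells of pool 1.

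Dll1, a Notch ligand (chromosome 17, 15367354 to 15376872), was read in 6 of 32 wells, up to 367.4 CPM, and in 22 of 59, up to 1152 CPM. Its sum was 25.6 against 114.5 CPM (log2 fold -2.16, and -1.94 weighted by cluster). Hes6, which promotes differentiation and opposes Hes1 (chromosome 1, 91411483 to 91414038), stood at 24.2 against 79.1 CPM in 5 and 18 wells. Mfng, a glycosyltransferase that tunes Notch receptors, stood at 17.4 against 42.5 CPM in 4 and 21 wells. Srrm4, a splicing factor shared with neurons, stood at 22.3 against 45.4 CPM in 16 and 35 wells, and Dll3, a Notch ligand relative that acts within the cell, at 7.64 against 17.5 CPM. Not all members were low. The ligand gene Jag2 (63.3 against 69.03 CPM), Gadd45g (203.8 against 220.8) and Sox4 (11.9 against 14.7) stayed within 1.5-fold, and Rbm24, an RNA-binding protein, was higher at 154.2 against 92.1 CPM.

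The promoters of Dll1, Dll3 and Hes6 are shown because these genes were low together and each window holds the E-box CAGCTG, a sequence of the kind that factors such as Atoh1 bind. Windows are 300 bases from RefSeq on GRCm38.p6, from 250 bases before to 50 after the start of transcription, all on the minus strand, with CAGCTG in capitals. Dll1 is at chr17:15376883-15377182, Dll3 at chr7:28301736-28302035 and Hes6 at chr1:91413989-91414288. Another Hes6 window, at chr1:91413173-91413472, also holds CAGCTG and is not shown.
Dll1: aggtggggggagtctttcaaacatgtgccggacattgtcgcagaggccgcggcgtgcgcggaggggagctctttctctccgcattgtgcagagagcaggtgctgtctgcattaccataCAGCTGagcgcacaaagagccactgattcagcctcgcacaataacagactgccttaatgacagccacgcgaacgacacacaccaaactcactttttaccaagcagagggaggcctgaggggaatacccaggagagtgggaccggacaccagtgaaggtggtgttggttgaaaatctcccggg
Dll3: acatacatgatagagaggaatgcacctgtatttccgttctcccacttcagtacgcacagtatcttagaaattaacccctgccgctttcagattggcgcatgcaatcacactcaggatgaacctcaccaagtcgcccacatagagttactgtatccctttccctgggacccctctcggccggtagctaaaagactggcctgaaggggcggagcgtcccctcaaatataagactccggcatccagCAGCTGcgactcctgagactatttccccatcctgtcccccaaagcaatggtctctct
Hes6: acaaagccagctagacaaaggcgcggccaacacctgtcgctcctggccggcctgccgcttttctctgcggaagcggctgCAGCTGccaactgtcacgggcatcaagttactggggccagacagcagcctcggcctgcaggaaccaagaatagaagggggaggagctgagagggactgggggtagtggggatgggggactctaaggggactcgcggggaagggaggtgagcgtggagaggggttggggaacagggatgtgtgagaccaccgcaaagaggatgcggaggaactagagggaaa
CAGCTG reads the same on both strands. It was in 16.3% of 32851 windows and in 5 of the 10 measured genes of the immature list with a window, namely Dll1, Dll3, Hes6, Gadd45g and Sox4. A gene was counted if any of its windows held the motif, so shares of genes and of windows are not the same measure, for any motif here. Gadd45g and Sox4 stayed within 1.5-fold, so holding the motif did not separate the low genes from the others. Another 5 motifs, among them another E-box (CAGATG) and the core that Rbpj binds (TGGGAA), were searched on both strands: CAGATG was in 1 of the 10 genes against 17.2% of windows, TGGGAA in 2 (25.6%), CATNCA in 3 (37.5%), and TAATTA (5.29%) and ATTAAT (4.75%) in 0. Overlaps between motifs were not removed, and a match is not a measured binding site.

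Among 11 measured immature hair cell genes, 6 were at least 1.5-fold lower and 2 were higher, Rbm24 and Neurod6, the latter in 1 well. The median log2 fold was -1.02, where all 9975 genes had a median of -0.18 and 34% of them were at least 1.5-fold lower and 21% higher. Against each wildtype pool in turn, the list median for the Pou4f3-DTR pools ran from -2.03 to -0.91 and was below 0 in all 8 pairs, which share pools. Of its members 7 had a lower CPM in both Pou4f3-DTR pools than in all 4 wildtype pools (Jag2, Dll3, Dll1, Mfng, Srrm4, Hes6 and Atoh1) and 0 above. Of 11583 genes, 16.2% were below in this way and 6.29% above. The median was -0.69 with wildtype weighted by cluster. Xist reads vary with the pools: they were found in 0 of 140, 11 of 84, 68 of 79 and 54 of 79 wells of wildtype pools 1, 4, 5 and 6, and the list median in pool 1 was -1.36 without the 2 Pou4f3-DTR wells with an Xist read.

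**Figure D3:**
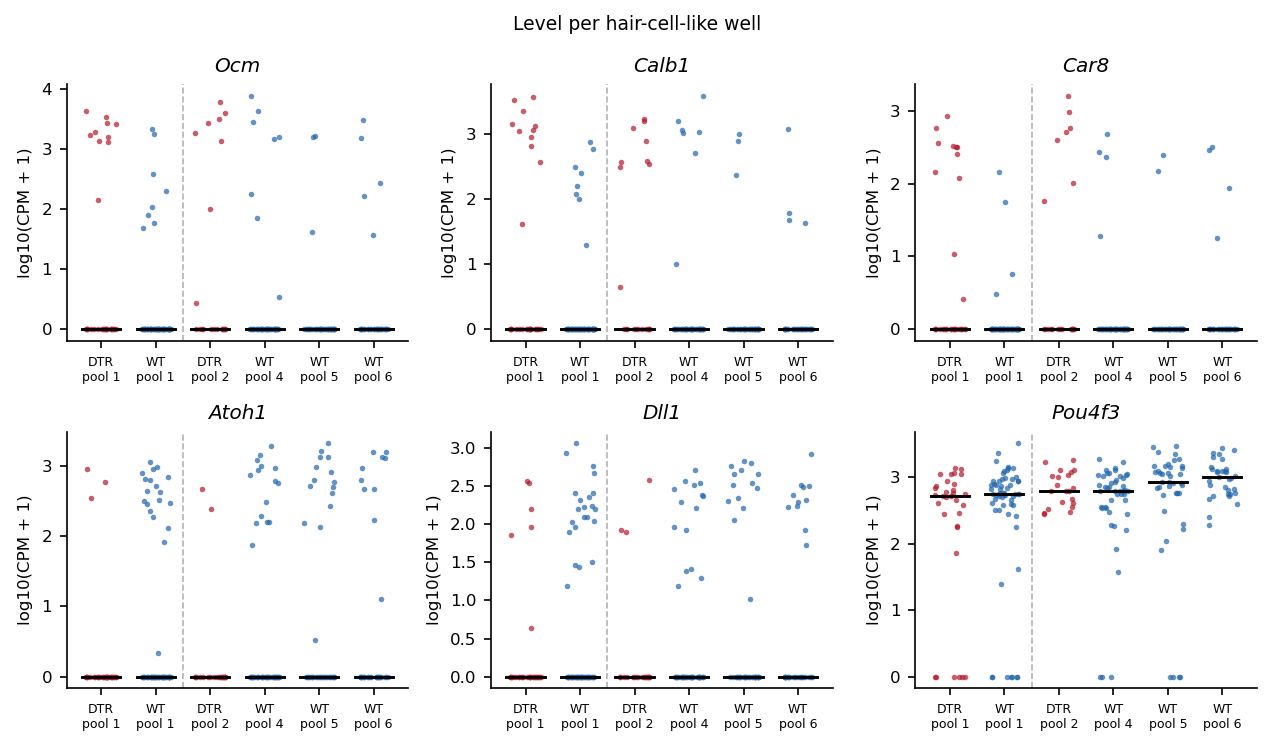
Level of 6 genes in each hair-cell-like well (vertical axis, log10 of CPM + 1), for Pou4f3-DTR (red) and wildtype (blue) by pool, with medians as black lines and pool 1 left of the dashed line. Ocm, Calb1 and Car8 were read in 10, 11 and 11 of 32 Pou4f3-DTR wells of pool 1, and Atoh1 in 3.

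Of 13 measured Notch pathway genes 1 was higher and 8 were lower by 1.5-fold or more, where 21% and 34% of all genes were. Their log2 folds had a median of -1.20. The immature list holds 5 of the 13, of which Dll1, Dll3, Mfng and Hes6 were lower. Of the other 8, Jag1, Rfng, Rbpj and Hes5 were lower, Notch1 was higher, and Lfng, Heyl and Hey1 were within 1.5-fold. Rfng, another glycosyltransferase of Notch receptors, stood at 19.8 against 47.1 CPM, and the nuclear effector Rbpj at 7.17 against 13.5 CPM. The receptor Notch1 was higher, at 67.8 against 7.57 CPM, but was read in 5 of 32 and 3 of 59 wells, and Pou4f3-DTR pool 2, at 13.2 CPM, lay within the wildtype range of 2.20 to 13.7 CPM. The target Heyl stood at 63.01 against 72.7 CPM.

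Pou4f3 itself was read in most wells of both groups, 26 of 32 and 52 of 59. It ran from 0 to 1380.5 CPM with a median of 521 per well in Pou4f3-DTR, and from 0 to 3228 CPM with a median of 558 in wildtype, and its sum was 554 against 708 CPM. The log2 fold was -0.35 in pool 1 and -0.32 in the check. Of the genes downstream of it, Gfi1, a repressor needed for hair cell survival, stood at 114.3 against 371.5 CPM, the LIM factor Lhx3 at 93.8 against 169.7 and Caprin1, an RNA-binding protein, at 136.7 against 331.5. Bdnf, a neurotrophin for the sensory neurons, was higher, at 562 against 317.3 CPM. In the check the log2 fold was 0.18 for Gfi1, -0.32 for Caprin1 and 0.48 for Bdnf, so the low level of Gfi1 was not seen there. Of 5 measured genes of this list, Lhx3 and Caprin1 were below all wildtype pools in both Pou4f3-DTR pools and 0 were above. Of 11583 genes, 16.2% were below in this way and 6.29% above.

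Of 30 measured genes of the hair bundle, the sensory organelle, 3 were higher and 12 lower by 1.5-fold or more in pool 1, where 21% and 34% of all genes were, and the median log2 fold was -0.36. In the check 17 of 30 were lower and 0 higher, where 38.6% of all genes were at least 1.5-fold lower and 21.4% higher. Tmc2, a transduction channel subunit of young hair cells, stood at 10.5 against 130.6 CPM, and was read in 7 of 32 wells, up to 107.6 CPM, and in 27 of 59, up to 1395 CPM. Espn, an actin bundler, stood within 1.5-fold in pool 1, at 484 against 507 CPM, and at 243.9 CPM in Pou4f3-DTR pool 2 against 491 to 862 CPM in wildtype pools. Cib2, which binds the transduction channel, was higher at 789 against 482 CPM, and Eps8, an actin regulator, at 83.9 against 40.4 CPM. Of these 30 genes 12 were below all wildtype pools in both Pou4f3-DTR pools and 0 above, where 16.2% and 6.29% of 11583 genes were.

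Otof, which hair cells need to release transmitter, was read in 32 of 32 and 55 of 59 wells and was lower in Pou4f3-DTR. Its level per well ran from 43.7 to 4181 CPM with a median of 718 in Pou4f3-DTR and from 0 to 5424 CPM with a median of 1259.5 in wildtype, and the sums were 881 and 1609 CPM (log2 fold -0.87, and -1.03 weighted by cluster). It was lower in 3 of the 4 hair-cell-like clusters, and in the cluster with Atoh1 it stood at 1363 against 1353 CPM. Both Pou4f3-DTR pools, at 881 and 951 CPM, lay below the wildtype pools, at 1361 to 2934 CPM. Calb2, a calcium buffer of young and type II hair cells, was lower too, at 56.4 against 208.5 CPM in 13 and 44 wells. The list of synapse and channel genes as a whole had 2 members higher and 4 lower of 15, no more than the 21% and 34% of all genes, with a median of -0.15 that turned to 0.025 with TMM scaling. The check had 4 members higher and 9 lower of 16 at a median of -0.71, where 21.4% and 38.6% of all genes were. In both Pou4f3-DTR pools 8 of 17 lay below all wildtype pools and 3 above, where 16.2% and 6.29% of 11583 genes did. Spp1, a marker of type I hair cells, stood at 22726 against 15722 CPM, and 2 of 6 type I genes were higher and 2 lower.

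Mitochondrially encoded genes were higher. All 14 measured were at least 1.5-fold higher, where 21% of all genes were, with a median log2 fold of 1.32. The complex I gene mt-Nd4 was read in 32 of 32 Pou4f3-DTR wells with a median of 1594 CPM and in 57 of 59 wildtype wells with a median of 465 CPM, and summed to 2029 against 599 CPM. The cytochrome oxidase gene mt-Co1 had medians of 4046 and 2272 CPM per well and sums of 5388 and 2888 CPM, and was higher in all 4 hair-cell-like clusters. Per well the mitochondrial share of reads ran from 2.16 to 26.6% with a median of 4.18% in Pou4f3-DTR and from 1.17 to 8.27% with a median of 2.40% in wildtype, so the ranges overlapped. The median share was 4.76% in Pou4f3-DTR pool 2 and 3.59%, 1.25% and 1.21% in wildtype pools 4, 5 and 6. Wildtype pool 4 therefore stood nearer to the Pou4f3-DTR pools than to pools 5 and 6, and the list median ran from 0.30 to 2.92 over the pairs of pools. Nuclear genes of the respiratory chain had 4 members higher and 0 lower of 30, where 21% and 34% of all genes were, with a median of 0.14, and of -0.01 without the 3 highest wells per gene. The check had 11 members higher and 0 lower at a median of 0.53, where 21.4% and 38.6% of all genes were. In both Pou4f3-DTR pools 13 of 30 were above all wildtype pools and 0 below, where 6.29% and 16.2% of 11583 genes were. One of the 13 was Cycs, cytochrome c, at 159.6 against 80.3 CPM.

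**Figure D4:**
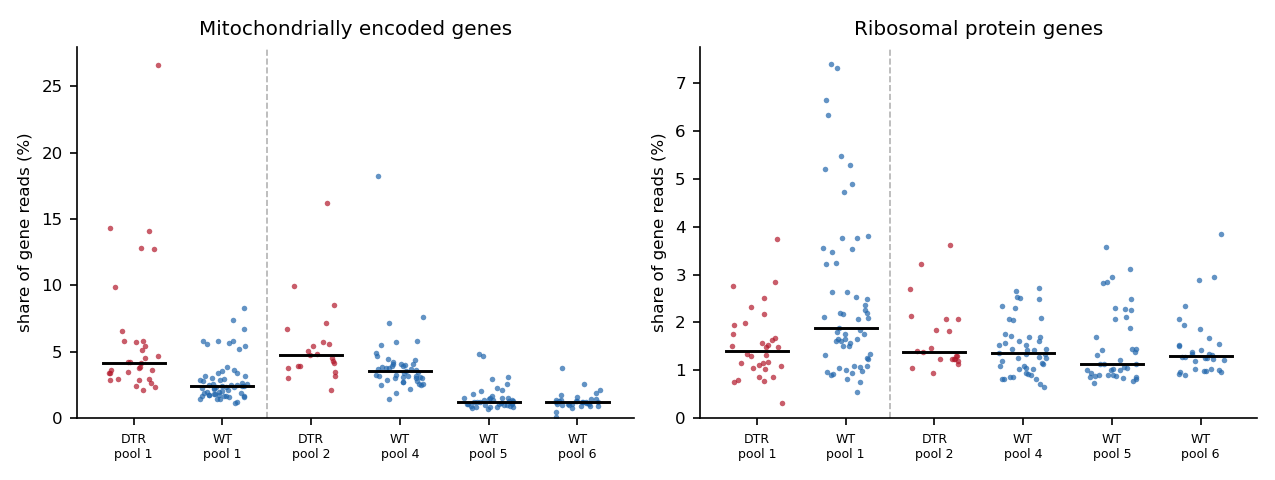
Share of gene reads (vertical axis, percent) from mitochondrially encoded genes (left) and ribosomal protein genes (right) in each hair-cell-like well by pool, with medians as black lines. Mitochondrial medians were 4.18% and 2.40% in pool 1 and 3.59% in wildtype pool 4, and the ribosomal median of 1.88% in wildtype pool 1 lay above those of the other 5 pools.

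Ribosomal protein genes were lower in pool 1 but not in the check. Of 76 measured, 1 was higher and 40 were lower by 1.5-fold or more, where 21% and 34% of all genes were. The median log2 fold was -0.63. The median share of reads per well was 1.41% in Pou4f3-DTR and 1.88% in wildtype, while the other 4 pools had 1.39% (Pou4f3-DTR) and 1.37%, 1.14% and 1.29% (wildtype). Against wildtype pools 4, 5 and 6 the list median of Pou4f3-DTR pool 1 was 0.09, 0.11 and 0.05. The low level thus appeared against wildtype pool 1 alone. Ribosomal protein genes have many near-identical pseudogenes, so single genes of the list are uncertain.

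Genes of the otolith and acellular matrix, which supporting cells make, were higher in a few hair-cell-like wells. Of 8 measured, 6 were at least 1.5-fold higher and 1 lower, where 21% and 34% of all genes were. The median log2 fold was 2.08. Otog, a glycoprotein of the membranes over the sensory patch, was read in 7 of 32 wells, up to 2852 CPM, and in 5 of 59, up to 1673 CPM, with sums of 346.6 and 40.1 CPM. Otoa, which anchors these membranes, stood at 103.8 against 17.7 CPM in 10 and 7 wells. Of 13 measured supporting cell markers 8 were higher and 2 lower, against the same 21% and 34% of all genes. The summed level of all 20 supporting cell markers ran from 0 to 7091 CPM per Pou4f3-DTR well and from 0 to 6573 CPM per wildtype well, with medians of 222.5 and 118.8 CPM. Of the 20, 17 and 19 were read, Fgfr3 was at 0 in both groups, and Sox10 and Tectb were at 0 in Pou4f3-DTR. Wells with reads of at least 5 of the 20 were 4 of 32 and 4 of 59. Without these wells the median of the supporting cell markers turned from 0.89 to -0.60, and that of the matrix list was 0.58.

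**Figure D5:**
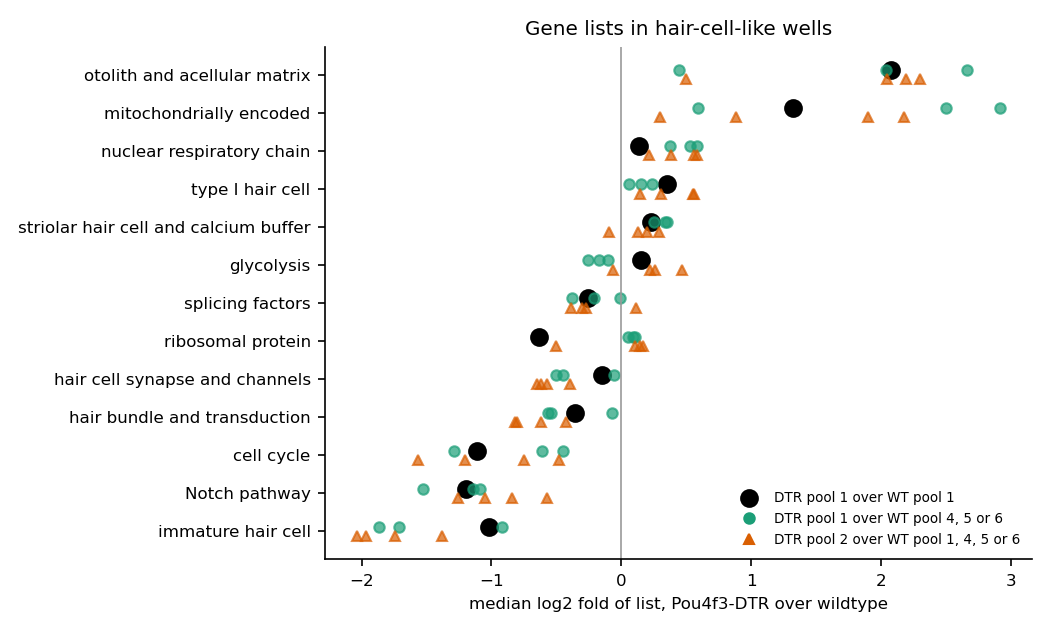
Median log2 fold of 13 gene lists in hair-cell-like wells (horizontal axis) for Pou4f3-DTR over wildtype, with pool 1 as black circles and the other pairs of pools in color. The immature hair cell, Notch, cell cycle, hair bundle and synapse lists lie below 0 in all 8 pairs. All genes had a median of -0.18 in pool 1 and -0.24 in the check, so 0 is not the background. The synapse median of -0.15 in pool 1 lay above that of all genes. Over the pairs the bundle and synapse medians came as near to 0 as -0.07 and -0.05. The type I, nuclear respiratory, mitochondrially encoded and matrix lists lie above 0 in all 8, while the ribosomal protein list lies below 0 only against wildtype pool 1. Of 6 measured cell cycle genes 2 were at least 1.5-fold higher and 4 lower in pool 1, where 21% and 34% of all genes were. The lower ones include the inhibitor genes Cdkn1a, Cdkn1b and Cdkn1c.

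In supporting-cell-like wells, 7 Pou4f3-DTR and 27 wildtype, most matrix genes that these cells make were within 1.5-fold. Sparcl1 was read in 7 of 7 and 26 of 27 wells, with medians of 4826 and 4511 CPM and sums of 5142 and 4879.7 CPM. Otoa stood at 1308 against 1049 CPM and Otog, above 1.5-fold, at 8888 against 5326 CPM. Both were read in all wells, and Otog stood at 7021 CPM in Pou4f3-DTR pool 2 against 6396 to 9304 CPM in wildtype pools 4, 5 and 6. Of 11 measured matrix genes 3 were at least 1.5-fold higher and 1 lower, where 28.3% of 9178 genes were higher and 55.3% lower. Of 15 Notch genes 11 were lower and 2 higher. The receptor Notch1 (527 against 405.2 CPM) and the ligand Jag1 (819.6 against 577) were within 1.5-fold, while the target Heyl stood at 42.8 against 251.6 CPM, in 2 of 7 and 14 of 27 wells. Hes5, another Notch target, was read in 0 of 7 wells (upper limit 40.96%) and in 3 of 27.

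The median log2 fold over all genes in this class was -1.07, with 22.4% of genes at least 2-fold higher and 50.7% lower. A list median here is therefore set beside that value and not beside 0. The Notch median of -2.65 and the interferon median of -4.63 lay below it, and the ribosomal protein median of -0.68 above. In the check the Notch median was -1.97 and the interferon median 0.72, where all genes had -0.83. Pou4f3-DTR wells had a median of 1864 genes and wildtype wells 2581. The named genes of this class were also picked by their fold in pool 1, so their size there is a description. The 5 genes named as lower included Cd164, a sialomucin (1.22 against 519 CPM, in 1 of 7 and 19 of 27 wells), and the coat protein genes Copb1 and Copb2, each read in 0 of 7 wells and in 15 and 14 of 27. Of the 5 named as higher, Psip1, a chromatin reader, stood at 191.6 against 2.15 CPM in 3 and 5 wells, and Ndufb8, a complex I subunit, at 481 against 28.6 CPM in 5 and 6 wells. In the check, with 6 Pou4f3-DTR wells, 3 of 5 kept their direction on each side, among them Psip1 (log2 fold 4.03) and Copb2, again read in 0 Pou4f3-DTR wells. Cd164 (0.38) and Copb1 (0.23) of the lower genes and Fam208a (-2.76) and Klhl21 (-3.40) of the higher ones turned. Of 14 measured mitochondrially encoded genes 8 were at least 1.5-fold higher and 0 lower, where 28.3% and 55.3% of all genes were. Their median was 1.02, and 0.57 without the Pou4f3-DTR wells with an Xist read.

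In roof-epithelium-like wells, 13 and 45, the anion exchanger gene Slc26a4, which encodes pendrin, was at a similar level in both groups. It was read in 10 of 13 and 36 of 45 wells and stood at 764 against 848 CPM. Atp1b1, which encodes the beta subunit of the sodium pump, stood at 909 against 577 CPM in 13 and 38 wells. Of 11 ion transport genes 6 were at least 1.5-fold higher and 1 lower, where 26.8% of 10035 genes were higher and 42.1% lower, and the list median turned to -1.13 without the 3 highest wells per gene. Of 16 cell cycle genes 12 were lower and 1 higher, which rests on few wildtype wells: the proliferation genes Mki67, Top2a and Cdk1 were read in 2, 1 and 3 of 45 and in 0 of 13 (upper limit 24.7%). Cdkn1a, which stops the cell cycle, was the higher member, at 111.03 against 14.2 CPM in 6 and 6 wells.

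All 10 genes named as lower in this class were read in 0 or 1 of the 13 Pou4f3-DTR wells. They were picked by their fold in pool 1, so these low counts follow in part from the choice and are a description. Of all genes in this class, 19.1% were at least 2-fold higher and 34.4% lower. Wdr33, a factor of mRNA processing, was read in 0 of 13 and 19 of 45 wells (42.2%, 27.7 to 57.8%). Cwc22, also named in the other classes, was read in 0 of 13 and 15 of 45. Of the 10 named as higher, Gna14, a G protein subunit, stood at 172.2 against 6.26 CPM in 5 and 4 wells, and Ghr, the growth hormone receptor, was read in 5 wells and 1 well. Of 15 mitochondrially encoded genes 8 were at least 1.5-fold higher and 0 lower, where 26.8% and 42.1% of all genes were. Markers of endothelium and pericytes, such as Rgs5 (0 against 1993 CPM, all from 1 well), were each read in at most 2 of the 45 wildtype wells. With 1 Pou4f3-DTR well of this class in pool 2, no check was made.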

How the data were processed

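Per gene and well, the authors deposited expected counts. Per the submitters' processing notes STAR 2.5.3a, RSEM 1.3.0 and mm10 were used. The gene annotation and strandedness of the counting: not given in the sources used here. Values were rounded to whole numbers, and totals and CPM cover 52636 genes of 52730 entries (92 ERCC spike-ins and 2 added sequences left out). Coordinates came from GENCODE M21 (GRCm38).

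Passed P6 wells of all pools were clustered together (scanpy 1.11.5, igraph 0.11.9, Python 3.11.15: 2000 variable genes, 30 components, 15 neighbours, Leiden resolution 1). A marker counted for a cluster if read in at least 25% of its cells, within 2-fold of the highest cluster and at least 4-fold over the lowest. A cluster took the class with the most such markers, by share and number, if it had 3 or more and no other class had more among the 10 leading genes. This scoring was revised after the clusters had been seen; the marker lists were not. The roof name was lost when pool 1 was clustered alone. No doublet caller was run; wells with reads of 5 or more markers of the other class were left out as an alternative.

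Counts were summed per genotype and class, and 3 reads over a group were the floor for folds. A listed gene was measured from 10 CPM in either genotype and was counted higher or lower from 1.5-fold. Named genes were the 10 largest folds in each direction (5 where a genotype had under 10 wells) among genes with 50 CPM or more, read in 25% or more of the wells of the higher group, and at least 2-fold apart in the sum, in the mean per-well CPM and without the 3 highest wells. Predicted genes, pseudogenes and sex-linked genes were left out. Lists cover hair cell types, bundle, synapse, Notch, Wnt, cell cycle, p53, stress, matrix, ion transport, respiratory, glycolytic, splicing and ribosomal genes and markers of other cell types. Scripts were tested on simulated data. TMM factors came from edgeR 4.0.16. The members and lists were chosen with earlier results of these data known, and the comparison by pool and the motifs after the values had been seen.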

Additional observations from a re-analysis of the deposited data

Results flagged for a closer look

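Some reads appeared outside the measurements compared, above the level in the 140 wildtype wells of pool 1, which held none. Xist was read in 10 Pou4f3-DTR wells of pool 1. The Pou4f3DTR entry was read in 10 Pou4f3-DTR wells of pool 1, and also in wells labelled wildtype in the check pools: 2 in pool 4, 4 in pool 5 and 8 in pool 6. The exact 95% upper limit for 0 of 140 wells is 2.60%.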

How the results depend on the processing

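No paired analysis was possible because the labels give no shared replicate numbers and each genotype was 1 sample. Under other clusterings and quality filters the hair-cell-like share ran from 50 to 55% in Pou4f3-DTR and from 41.4 to 43.2% in wildtype, and the supporting-cell-like share from 11.7 to 20% and from 18.6 to 21.4%. The roof-epithelium-like share fell to 11.7% in Pou4f3-DTR at resolution 2 and with all passed wells clustered. Shares of genes at least 2-fold different depended on the filter on low values. In hair-cell-like wells, 1297 higher and 2229 lower of 9975 genes became 7.53% and 13.9% (649) of 4673 at 50 CPM, and 16.6% (2755) and 30.7% (5075) of 16556 with no filter. Leaving out the 3 highest wells per gene, which takes a larger part of the smaller group, gave 5.43% higher and 41.9% lower of 6716 there, 1.02% (38) and 90.9% of 3709 in supporting-cell-like wells and 2.78% and 69.98% of 5423 in roof-epithelium-like wells, against 2056 and 1912 genes higher. At 50 CPM the supporting class had 33.7% (1764) lower, and the roof class 17.5% (875) higher and 21.9% (1095) lower; with no filter the roof class had 39.7% (5917) lower. The other alternatives kept these counts within 1.5 times. TMM and median-of-ratios scaling raised the matrix list median in hair-cell-like wells by 0.14 and 0.15, and the synapse list median there by 0.17 and 0.19. They lowered the matrix list median in supporting-cell-like wells by 0.21 and 0.17. In the check pools directions turned for Cul3 (-1.12), Lpcat3 (1.20), Xpo1 (0.47) and the ribosomal protein median (0.13) in hair-cell-like wells, and in supporting-cell-like wells for Cd164 (0.38), Copb1 (0.23), Fam208a (-2.76), Klhl21 (-3.40) and the diphthamide (0.60), interferon (0.72), ion transport (1.05), hair cell marker (1.12) and ribosomal protein (0.58) medians. Within pool 1 they turned for supporting cell markers in hair-cell-like wells without mixed wells (-0.60), Adipor2 in supporting-cell-like wells without Xist-positive wells (-1.36), the hair bundle median there at 50 CPM (0.42), and in roof wells the ion transport median without the 3 highest wells (-1.13) and the hair cell marker median at 50 CPM (0.052). The cause was not tested. Leaving out Xist-positive wells and all roof alternatives were chosen after seeing the data. List medians needed 5 measured members. Genes read in few wells are limited by the number of wells: 0 of 7 allows up to 40.96%.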

Other observations

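Genes linked to the toxin receptor and its target showed no shared direction in hair-cell-like wells of pool 1. Of 8 measured genes of diphthamide synthesis and its target, 3 were at least 1.5-fold higher and 1 lower, where 21% and 34% of all genes were. Eef2, the elongation factor that diphtheria toxin modifies, stood at 827 against 1217 CPM, and Dph1, which acts in diphthamide synthesis, at 32.4 against 6.62 CPM in 5 and 7 wells. Dph1 was above all wildtype pools in both Pou4f3-DTR pools, at 32.4 and 42.3 CPM against 5.39 to 15.1. Of 4 measured HB-EGF and ErbB genes, Btc and Erbb4 were higher and Tgfa and Egf lower in pool 1. In the check 3 of 3 were lower, where 38.6% of all genes were at least 1.5-fold lower. Tgfa, a ligand of the EGF receptor, stood at 32.2 against 76.6 CPM in 6 and 19 wells.

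Genes of p53 and cell death went both ways, with 4 higher and 2 lower of 9 measured in pool 1 and 4 higher and 5 lower of 10 in the check. Of all genes, 21% were at least 1.5-fold higher and 34% lower in pool 1, and 21.4% and 38.6% in the check. Bax, which promotes apoptosis, stood at 19.5 against 50.8 CPM in 8 and 24 wells, and Trp53inp1 at 147.5 against 72.4 CPM. The cell cycle inhibitor genes Cdkn1a (63.4 against 117.4 CPM), Cdkn1b (17.3 against 66.4) and Cdkn1c (28.4 against 76.8) were lower. All 3 were below every wildtype pool in both Pou4f3-DTR pools. They are named here because they were low, so this is a description. Of the whole cell cycle list, 4 of 10 genes measured in any pool were below in this way and 0 above. Of the p53 and cell death list, 2 of 11 were below and 2 above. Of 11583 genes, 16.2% were below and 6.29% above.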
